A study of Mus musculus with 1094 samples.

Results

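Fibroblast growth factor (FGF) signalling was followed through 36 genes of the developing mouse dorsal cortex: ligands, receptors, and the genes by which the pathway damps or reports its own activity. They are all rows of the deposited tables whose symbol names an FGF, an FGF receptor, a Sprouty or a Spred, together with Dusp6, Etv1, Etv4 and Etv5, which gives 36 of 23078 gene rows. By role they are 18 receptor-binding ligands, 4 intracellular FGFs (Fgf11 to Fgf14), 4 receptors, 3 Sprouty genes (Spry1, Spry2 and Spry4), 3 Spred genes, the phosphatase gene Dusp6 and 3 PEA3 factor genes. The values are TPM, a unit that scales each library's transcripts to 1 fixed total and corrects for transcript length.

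The study sorted single cells from micro-dissected dorsal cortex of wild-type female C57Bl/6 mice that carried a green fluorescent reporter. Newborn neurons (NBN) and basal progenitors (BP) came from Tbr2::GFP mice, whose reporter follows Tbr2, a factor of intermediate progenitors. Neural stem cells (NSC) came from Hes5::GFP mice, whose reporter follows a Notch target of radial glia. There were 212 NBN cells in 4 libraries (E16.5, E18.5, P1 and P3), 344 BP cells in 5 libraries (E12.5, E14.5, E16.5, E18.5 and P0) and 538 NSC cells in 8 libraries (E10.5, E11.5, E13.5, E15.5, E17.5, E18.5, P0 and P1), where a library is all cells of 1 population at 1 stage. No group was treated or mutant, and no animals are named.

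FGFs bind receptor tyrosine kinases together with heparan sulfate, and the activated receptor drives the RAS-ERK cascade. ERK activity raises transcription of the PEA3 factors and of Sprouty, Spred and Dusp6, which in turn restrain the cascade, so these genes are widely used as readouts of FGF signalling. In the early forebrain, FGFs from the anterior midline pattern the cortex, and FGF receptors in radial glia favour continued self-renewal over neuron production. Later in development, FGF signalling favours the making of glia.

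A library held 39 to 89 cells, with a median of 3189 to 5764 genes at 1 TPM or more per cell. TPM keep no sequencing depth, so the depth is unknown. Some libraries stand apart from their labels. In NBN P3, 30 of 40 cells had more radial glia than newborn neuron transcripts and 36 held markers of another cell type, among them 18 with microglial and 13 with meningeal markers. In NSC E15.5, newborn neuron transcripts outweighed those of radial glia in 78 of 86 cells, as they did in 55 of 76 in NSC E17.5, 36 of 68 in NSC E13.5 and 33 of 59 in NSC E11.5. Mitochondrial transcripts took a median of 19.6% of the TPM of an NBN P1 cell and 12.7% of that of an NBN P3 cell, while the medians of the remaining libraries lay between 5.22 and 7.79%. All 14 radial glia markers reached 1 TPM in every NSC library, all 10 basal progenitor markers did in every BP library, and 10 to 12 of 12 newborn neuron markers did in the NBN libraries. In NBN P3 the summed level of the newborn neuron markers was 1001 TPM and that of the 8 microglial markers 9203 TPM. Erythroid markers were held by 20 of 88 cells in NSC E10.5 and 33 of 59 in NSC E11.5. In 23 cells fewer than 1000 genes reached 1 TPM, and these near-empty cells can carry very high TPM of a few genes.

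**Figure D1:**
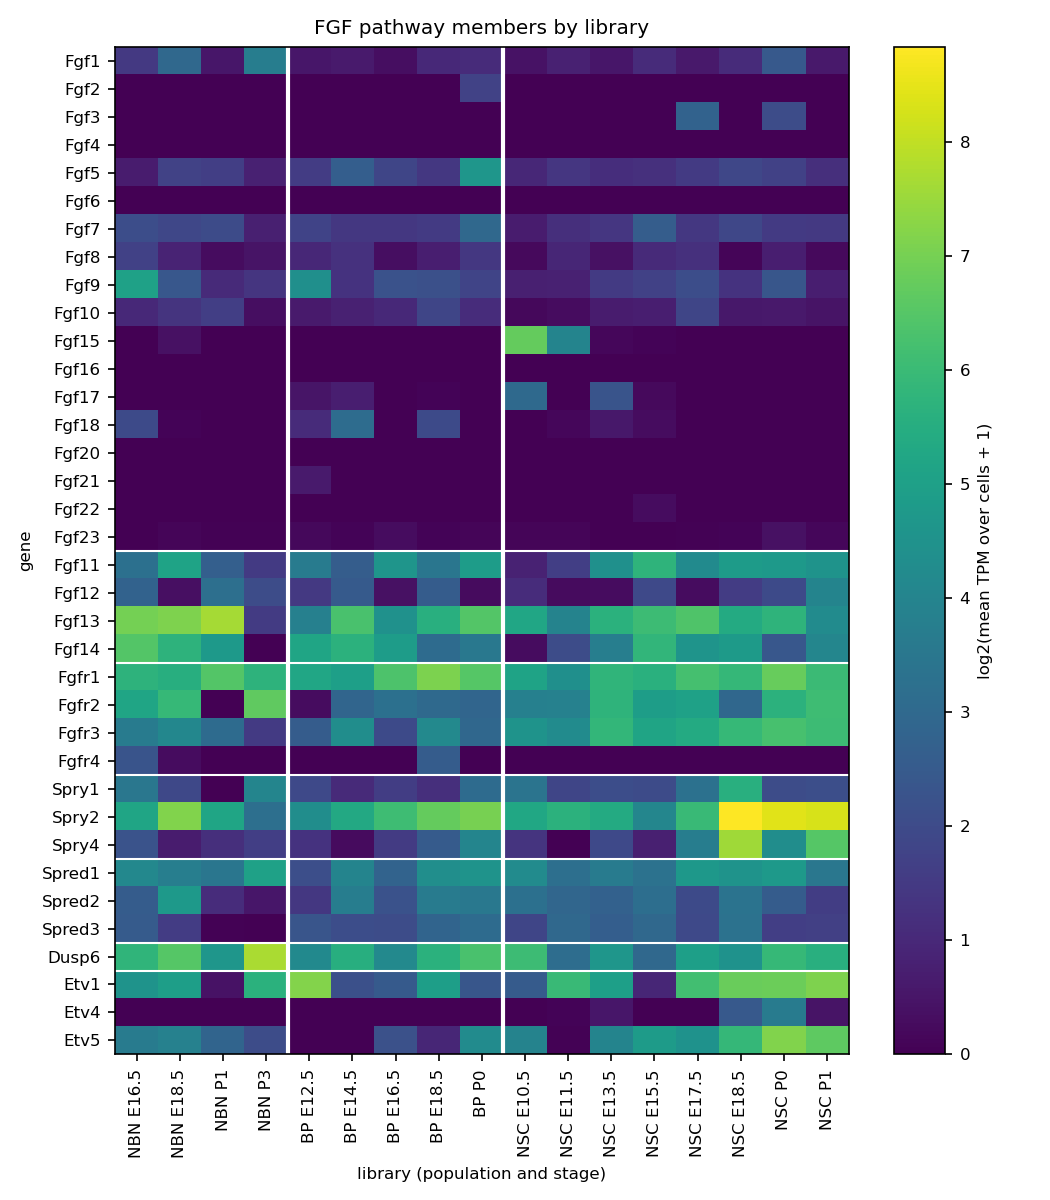
Each row is 1 of the 36 genes, grouped by role, and each column 1 of the 17 libraries (NBN, BP, NSC, each by stage). Colour is log2(mean TPM over cells + 1). Most ligand rows are dark, whereas the receptor, intracellular FGF and Spry2 rows are bright in most libraries, with Spry2 at 456 TPM in NSC E18.5.

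The bases just before 3 members are shown: Fgfr3, which was called between populations, and Etv5 and Spry2, whose differences passed under some alternatives only. Spry4, the other called member, is not shown. These bases are given because ETS factors such as Etv5 and the ERK-sensitive repressor capicua are known to act at promoters of pathway genes. They are from RefSeq (GRCm38.p6), 5′ to 3′ on the gene's strand, cut where the GENCODE gene begins. Fgfr3 lies on the plus strand (chr5:33721474-33721673 shown), Etv5 on the minus strand (chr16:22439720-22439820) and Spry2 on the minus strand (chr14:105896820-105897069).
Fgfr3: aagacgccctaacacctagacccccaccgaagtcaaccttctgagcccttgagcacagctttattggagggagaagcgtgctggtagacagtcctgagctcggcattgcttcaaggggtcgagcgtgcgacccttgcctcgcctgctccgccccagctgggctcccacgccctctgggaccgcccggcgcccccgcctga
Etv5: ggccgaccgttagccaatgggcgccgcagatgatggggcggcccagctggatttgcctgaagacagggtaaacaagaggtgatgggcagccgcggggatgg
Spry2: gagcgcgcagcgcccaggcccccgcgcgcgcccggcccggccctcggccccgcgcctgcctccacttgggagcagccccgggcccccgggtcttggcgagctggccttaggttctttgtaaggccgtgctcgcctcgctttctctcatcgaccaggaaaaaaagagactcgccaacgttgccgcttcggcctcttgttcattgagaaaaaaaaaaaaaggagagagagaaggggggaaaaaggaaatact
All 3 are in lower case because neither searched motif was found on either strand of the 250 bases before their RefSeq starts. The motifs were the capicua octamer, in the forms TGAATGAA and TGAATGGA only, and the ETS core CCGGAA. Other forms of the octamer were not searched, so these windows, that of Spry2 included, are not shown to lack it. Over all 32851 RefSeq windows of 250 bases, 2.07% held the octamer in a searched form and 12.0% the ETS core. Of the 36 windows of the 27 members in the table, 3 held the octamer in a searched form (Fgf21, Fgf23 and Spred3). The ETS core was in 3 (Fgf5, Fgf12 and Fgfr4). A match describes the letters of a window, not a binding site.

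Most receptor-binding ligands were scarce in these cells. Of the 18, only Fgf5, Fgf9 and Fgf15 had a library mean of 20 TPM or more. Fgf4, Fgf6 and Fgf16 are listed at 0 in all 1094 cells, which allows a share of cells at 1 TPM of up to 0.274%. That limit covers counting error only, and everyday genes are also listed at 0 in some cells (Actb in 17, Eef1a1 in 28 and Gapdh in 97). Fgf2, Fgf3, Fgf20, Fgf21 and Fgf22 reached 1 TPM in 1 to 3 cells each, and Fgf17, Fgf18 and Fgf23 in 10 to 23 cells.

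Fgf15, an early forebrain ligand of the mouse whose human counterpart is FGF19, was the most abundant ligand and was found at the start of the NSC series. Its NSC level was 106 TPM at E10.5, 15.0 TPM at E11.5, 0.104 TPM at E13.5 and 0.0573 TPM at E15.5, and at most 0.0121 TPM in the later NSC libraries. At E10.5, 29 of 88 NSC cells held it (33.0%, exact 95% interval 23.3 to 43.8%), with a median of 120 TPM in those cells. The 20 E10.5 cells with erythroid markers averaged 236 TPM of Fgf15 (7 of them held it) and the other 68 averaged 67.7 TPM (22 held it), and the part of the marker cells in the level was not tested. At E11.5, 1 cell held 99.1% of the library's sum, so that mean does not describe the library. No BP cell reached 1 TPM, and 1 of 212 NBN cells did. With only 2 libraries above 1 TPM, Fgf15 was not among the genes tested.

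Fgf17, a ligand of the same early midline group as Fgf8, had its highest level in the same library, 7.03 TPM in NSC E10.5, in 4 cells. Among the E10.5 NSC cells, 3 of the 29 with Fgf15 and 1 of the 59 without it held Fgf17. Of the receptors, Fgfr1 was held by 20 of 29 cells with Fgf15, against 46 of 59 without it, and Fgfr3 by 14 of 29, against 34 of 59. Spred1 was held by 20 of 29 cells with Fgf15 and 23 of 59 without it. These are cells of 1 library, given as a description. Fgf15, Fgf4 and Fgf3 lie within 62871 bases of each other (chr7:144838083-144900953, GRCm38). Fgf3 reached 1 TPM in 3 cells and Fgf4 in none.

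Fgf9, a ligand made by neurons that acts on neighbouring glia, was higher in some early neuron-rich libraries. Its level was 32.2, 4.27, 1.09 and 1.55 TPM in NBN (E16.5 to P3), 20.2, 1.44, 3.65, 3.51 and 2.55 TPM in BP (E12.5 to P0), and 0.676 to 4.15 TPM in NSC (median 1.64). The high values rest on few cells: 1 cell held 67.1% of the sum in NBN E16.5 and 42.7% in BP E12.5. Fgf9 was nevertheless at 1 TPM or more in 52 of 63 NBN E16.5 cells.

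Fgf5, known as a regulator of hair growth and of early embryonic cells, shows how a low level can spread over many cells. It was at 1 TPM or more in 586 of 1094 cells but at 10 TPM or more in only 14. By library it was 0.589, 2.33, 2.14 and 0.759 TPM in NBN, 2.01, 5.28, 2.56, 1.70 and 23.9 TPM in BP, and 0.974 to 2.72 TPM in NSC (median 1.51). The BP P0 value comes to 88.8% from 1 cell. Fgf7, a ligand of the Fgfr2 splice form of epithelia, had the same pattern, with 466 cells at 1 TPM and 34 at 10 TPM, and library means of 0.586 to 6.91 TPM. Fgf1, Fgf8 and Fgf10 reached 1 TPM in 166, 148 and 211 cells, and 7 to 22 cells at 10 TPM each. The highest library mean of Fgf1, 12.4 TPM, was in NBN P3, where the 13 cells with meningeal markers averaged 37.4 TPM and the other 27 averaged 0.329 TPM. Only 3 of those 13 cells reached 1 TPM, and a single cell held 67.5% of the library's Fgf1.

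The intracellular FGFs, which are not secreted and act on sodium channels and microtubules in neurons, were the most abundant FGF genes in most libraries. Summed, the 4 genes reached 228, 224, 238 and 6.88 TPM in the NBN libraries from E16.5 to P3, 62.2 to 138 TPM in BP and 19.8 to 176 TPM in NSC. NBN P3 lay far below the other NBN libraries. The 18 receptor-binding ligands summed to 9.18 to 44.0 TPM in NBN, 9.67 to 39.8 TPM in BP and 4.90 to 116 TPM in NSC.

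Fgf13, which binds microtubules and sodium channels and is needed for neuron migration, led this group. It stood at 126, 138, 199 and 1.89 TPM in NBN from E16.5 to P3, at 13.3, 77.9, 21.2, 47.0 and 88.7 TPM in BP from E12.5 to P0, and at 14.3 to 84.1 TPM in NSC (median 45.0). Its 3 NBN libraries before P3 lay above every BP and NSC library. In NBN P1 the 4 cells with markers of another cell type averaged 875 TPM of Fgf13, and the other 35 averaged 121 TPM. Of those 4 cells, the 3 with interneuron markers averaged 5.70 TPM. The part of the marker cells in the NBN P1 level was not tested. Over all 4 NBN libraries the difference from NSC was 0.57 ± 0.98 log2 units (SE, limma, adjusted p = 0.851), and without NBN P3 it was 1.66 ± 0.58 (adjusted p = 0.115). Neither passed.

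Fgf14, which modulates sodium channels at the axon initial segment, was found in few cells at high levels. Its level was 87.3, 51.8, 25.9 and 0 TPM in NBN, 35.3, 50.3, 28.3, 7.60 and 10.7 TPM in BP, and 0.233 to 54.7 TPM in NSC (median 14.3). It was at 1 TPM in 44 of 212 NBN cells, 43 of 344 BP cells and 41 of 538 NSC cells. Its highest NSC library was E15.5, where the 8 cells with more radial glia than newborn neuron transcripts averaged 141 TPM and the other 78 averaged 45.8 TPM. Fgf14 reached 1 TPM in only 25% of those 8 cells and in 15.4% of those 78.

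Fgf11, a further intracellular FGF, overlapped among the populations. Its level was 8.54, 33.7, 5.37 and 1.85 TPM in NBN, 11.9, 5.03, 23.6, 10.2 and 28.2 TPM in BP, and 0.791 to 53.2 TPM in NSC (median 21.5). In NSC it was low at E10.5 (0.791 TPM) and E11.5 (2.11 TPM) and at 17.7 TPM or more in all later libraries. Fgf12, a further sodium channel partner, had library means of 0.202 to 14.9 TPM and reached 1 TPM in 77 cells.

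**Figure D2:**
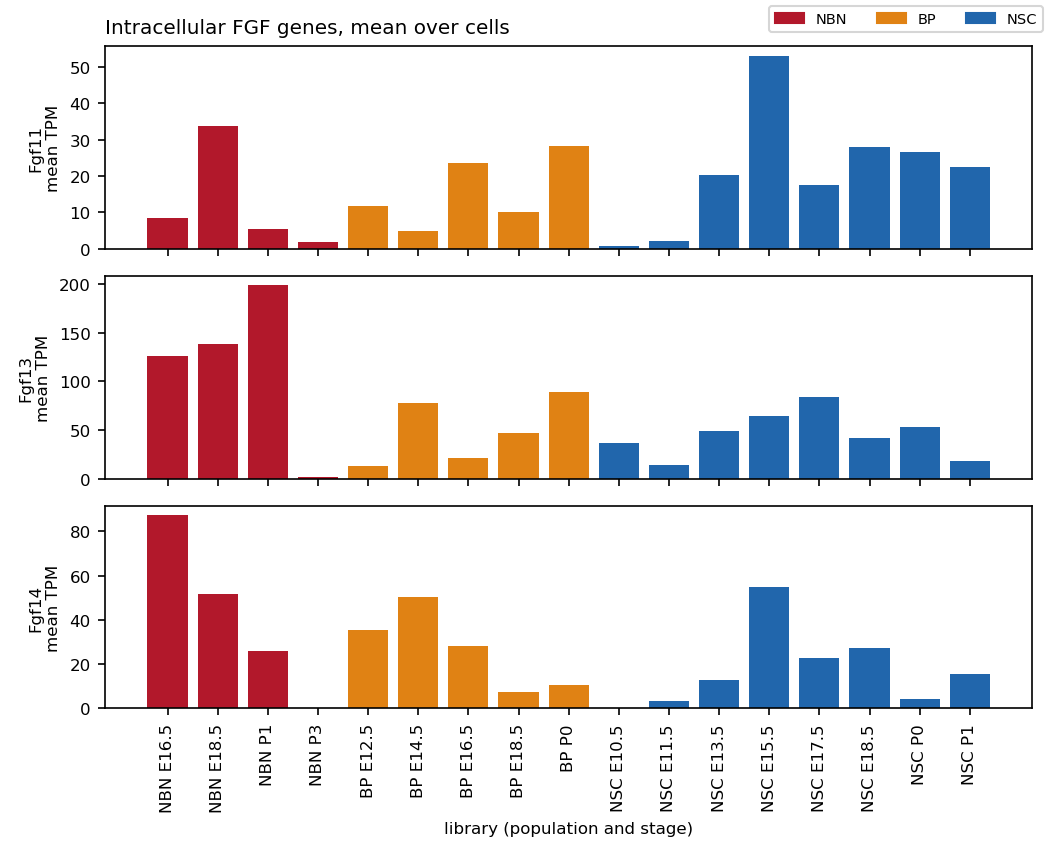
Bars give the mean TPM over cells of Fgf11, Fgf13 and Fgf14 in each of the 17 libraries, in panels with their own linear axes from 0. Fgf13 stands at 126 to 199 TPM in NBN E16.5, E18.5 and P1 and at 1.89 TPM in NBN P3, and Fgf11 is low in NSC E10.5 and E11.5.

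The receptors differed in where they were found. Fgfr3, a receptor of radial glia and astroglia, was lower in NBN than in NSC, Fgfr1 was found in all 3 populations at overlapping levels, Fgfr2 was low in every BP library, and Fgfr4 was found in 3 cells. Fgfr3 stood at 11.8, 15.8, 7.54 and 1.82 TPM in NBN from E16.5 to P3, at 4.95, 19.1, 2.99, 17.0 and 6.69 TPM in BP from E12.5 to P0, and at 22.2, 18.3, 57.0, 34.6, 40.8, 59.9, 75.9 and 66.0 TPM in NSC from E10.5 to P1. Every NSC library lay above every NBN library, and only BP E14.5 (19.1 TPM) overlapped NSC, through NSC E11.5.

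On the log2(TPM + 1) scale Fgfr3 averaged 3.08 ± 1.13 in NBN (SD, n = 4), 3.20 ± 1.02 in BP (SD, n = 5) and 5.43 ± 0.73 in NSC (SD, n = 8). NBN was lower than NSC by −2.59 ± 0.63 log2 units (SE; limma across all libraries with age as a covariate, Benjamini-Hochberg adjusted p = 0.0441). It was the 1 of 23 tested members called in that contrast, in which 1.66% of all 14072 tested genes were called. The call is a narrow one. Leaving out single libraries in turn, it held in 5 of 17 fits (without NSC E15.5, BP E14.5, BP E16.5, NBN E18.5 or NBN P3) and was lost in the other 12, with adjusted p up to 0.121 (without NSC P0). It was also lost in a fit to the libraries from E16.5 on (−2.75 ± 0.69, adjusted p = 0.0647), with a pseudocount of 0.1, with no filter on low values, with the mean of log2 over cells, with stage as a factor (−2.26 ± 0.74, adjusted p = 0.143), without the cells holding markers of another type (−2.83 ± 0.76, adjusted p = 0.0685) and without each library's highest cell (−2.15 ± 0.70, adjusted p = 0.115). A single cell held 82.9% of the Fgfr3 sum in NSC P1 and 68.8% in NSC E17.5. Without NBN P3 alone it held (−2.13 ± 0.55, adjusted p = 0.0372).

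In the contrast of BP with NSC, Fgfr3 had a difference of −2.26 ± 0.53 (limma, adjusted p = 0.0727), which did not pass. None of the 23 members passed there, and 0.476% of all genes were called. At an unadjusted p under 0.05 were 5 members and 1899 of all 14072 tested genes. Without NBN P3, which only shares the estimate of spread and the age slope with these groups, the difference was −2.28 ± 0.44 and passed (adjusted p = 0.0171). Fgfr3 was at 1 TPM or more in 46 of 212 NBN cells (21.7%), 87 of 344 BP cells (25.3%) and 208 of 538 NSC cells (38.7%). The mean of log2 over cells gave a difference from NSC of −0.86 ± 0.34 in NBN (adjusted p = 0.259). In a library mean, fewer cells with the gene and less RNA per cell cannot be told apart.

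Fgfr1, the receptor with the widest range of ligands in the embryo, was at 50.9, 45.9, 87.9 and 51.4 TPM in NBN, 36.5, 30.9, 81.0, 135.4 and 90.1 TPM in BP, and 20.0 to 110 TPM in NSC (median 55.9). The 3 populations overlapped throughout, and its differences from NSC were −0.48 ± 0.38 in NBN (limma, adjusted p = 0.601) and 0.24 ± 0.32 in BP (adjusted p = 0.769). It was found in 88 of 212 NBN, 174 of 344 BP and 266 of 538 NSC cells.

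Fgfr2, which is shared by radial glia and the oligodendrocyte lineage, was at 36.0, 58.9, 0.00799 and 102 TPM in NBN, at 0.223, 6.43, 8.60, 7.06 and 6.39 TPM in BP, and at 13.4, 13.9, 52.9, 29.4, 31.9, 6.67, 50.5 and 67.2 TPM in NSC. All BP values but those of E16.5 and E18.5 lay below the lowest NSC library, E18.5. The difference of BP from NSC was −2.36 ± 0.89 (limma, adjusted p = 0.26) and did not pass. It was found in 30 of 344 BP cells (8.72%), against 151 of 538 NSC cells (28.1%). The NBN values scattered most, and in NBN P3 the 18 cells with microglial markers averaged 2.58 TPM against 183 TPM in the other 22. Fgfr4 reached 1 TPM in 2 NBN cells, 1 BP cell and no NSC cell.

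**Figure D3:**
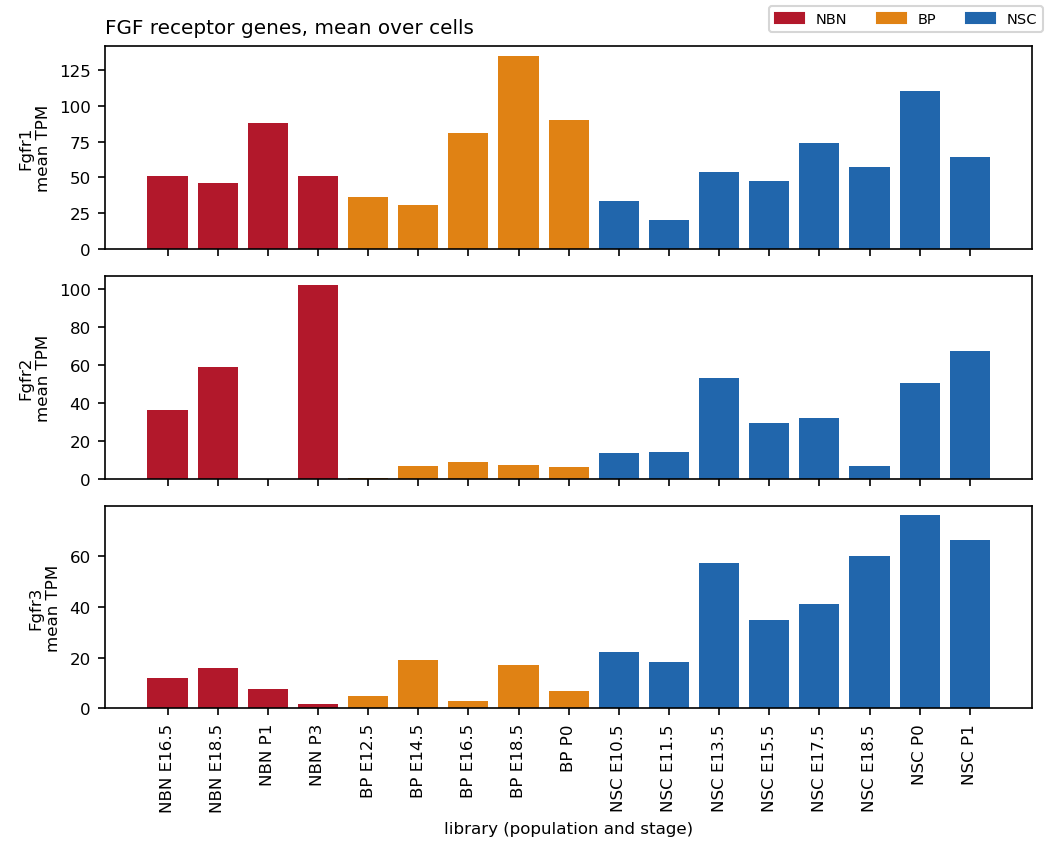
Bars give the mean TPM over cells of Fgfr1, Fgfr2 and Fgfr3 in each of the 17 libraries, with linear axes from 0. All 4 NBN bars of Fgfr3 (1.82 to 15.8 TPM) lie below all 8 NSC bars (18.3 to 75.9 TPM), Fgfr2 is at most 8.60 TPM in BP, and Fgfr1 overlaps among populations.

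More than 1 receptor gene was often found in the same cell. At 1 TPM or more, 47 of 212 NBN cells (22.2%), 71 of 344 BP cells (20.6%) and 190 of 538 NSC cells (35.3%) held at least 2 receptors, and 80 NBN cells (37.7%), 127 BP cells (36.9%) and 151 NSC cells (28.1%) held none. Within NSC the share with none ran from 7.95% at E10.5 to 49.2% at E11.5, and the highest share of all libraries was 52.5% in NBN P3. The median of genes per cell was 5688 in NSC E10.5 and 4510 in NSC E11.5. Fgfr1, Fgfr2 and Fgfr3 were all found in 9 NBN, 4 BP and 48 NSC cells. Of the 177 cells with a receptor-binding ligand at 10 TPM or more, 123 also held a receptor. A gene missing from a cell at unknown depth is not shown to be off.

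The feedback genes were led by Spry2, a Sprouty inhibitor of RAS-ERK signalling, which was detected in 990 of 1094 cells, more than any other member. It stood at 35.6, 143, 36.0 and 8.28 TPM in NBN from E16.5 to P3, at 19.0, 39.5, 66.6, 105.4 and 129 TPM in BP from E12.5 to P0, and at 37.7, 49.7, 41.2, 15.7, 62.0, 456, 344 and 315 TPM in NSC from E10.5 to P1. The last 3 NSC libraries lay far above all other libraries, and the 5 earlier ones overlapped BP and NBN. Other values moved with these late libraries: 10 astroglial markers summed to 126 to 640 TPM in NSC up to E17.5 and to 2728, 4905 and 7083 TPM at E18.5, P0 and P1, and neuron-profile cells made up 90.7% at E15.5, 72.4% at E17.5 and 6.25 to 25.8% from E18.5 on. Their part in the late levels of Spry2, Spry4 and Etv5 was not tested. Near-empty cells raised several of the middle values: without cells under 1000 genes Spry2 was 29.2 TPM in NBN E18.5, 25.4 TPM in BP E16.5, 74.3 TPM in BP P0 and 292 TPM in NSC P0.

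The NSC slope of Spry2 on age was 0.35 ± 0.10 log2 units per day (SE, limma, adjusted p = 0.119) and did not pass, and without NSC E15.5 and NBN P3 it was 0.34 ± 0.08 and passed (adjusted p = 0.0331). The mean of log2 over cells gave 0.37 ± 0.09 (adjusted p = 0.00708). Its difference of NBN from NSC was −2.23 ± 0.83 (limma, adjusted p = 0.18), which passed with the mean of log2 over cells (−2.83 ± 0.72, adjusted p = 0.046), and that of BP from NSC −0.70 ± 0.70 (adjusted p = 0.688).

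Spry4, a further Sprouty inhibitor, rose with age in NSC. It stood at 3.79, 0.603, 1.29 and 2.12 TPM in NBN, at 1.46, 0.196, 1.89, 4.79 and 15.1 TPM in BP, and at 1.52, 0.0118, 2.84, 0.729, 12.4, 192, 19.0 and 89.2 TPM in NSC from E10.5 to P1. The 4 NSC libraries up to E15.5 stayed under 3 TPM and the 4 later ones were at 12.4 TPM or more. The slope was 0.61 ± 0.13 log2 units per day (SE, limma, adjusted p = 0.0251), which made Spry4 the 1 of 23 members called for age in NSC, where 1.36% of all genes were called. Leaving out single libraries, it held in 15 of 17 fits and was lost without NSC E11.5 (0.57 ± 0.15, adjusted p = 0.108) and without NSC P1 (0.58 ± 0.15, adjusted p = 0.101). The call was also lost with a pseudocount of 10 (0.33 ± 0.08, adjusted p = 0.0502) and with no filter on low values (0.61 ± 0.14, adjusted p = 0.0672). It held without NSC cells of a neuron profile (0.69 ± 0.13, adjusted p = 0.0143) and without each library's highest cell (0.58 ± 0.13, adjusted p = 0.0344).

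Spry4 was high in few cells. It reached 1 TPM in 14 of 66 NSC cells at E18.5 (21.2%, exact 95% interval 12.1 to 33.0%), with a median of 395 TPM in those cells, in 8 of 48 at P0 and in 9 of 47 at P1, and in 0 of 59 at E11.5. A single cell gave 33.9% of the E18.5 sum. Of the E18.5 cells, the 7 with markers of the oligodendrocyte lineage averaged 745 TPM and the other 59 averaged 126 TPM. At P0 the 4 such cells averaged 51.2 TPM and the other 44 averaged 16.1 TPM. At P1, in contrast, the 9 such cells averaged 32.3 TPM and the other 38 averaged 103 TPM. Summed over 7 genes, these markers were at 310, 193 and 432 TPM in NSC E18.5, P0 and P1 and at 18.9 to 28.9 TPM in the earlier NSC libraries. Without those cells the slope was 0.59 ± 0.12 (adjusted p = 0.025) and passed. Its difference of NBN from NSC, −3.56 ± 0.93, did not pass (adjusted p = 0.0584), and without NSC cells of a neuron profile it did (−4.07 ± 0.99, adjusted p = 0.0236).

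Spry1 had low levels in most libraries, 10.4, 2.81, 0 and 15.2 TPM in NBN, 2.82, 1.05, 2.04, 1.27 and 7.60 TPM in BP and 2.63 to 46.8 TPM in NSC (median 3.30). Its highest library was again NSC E18.5, where 6 of 66 cells held it. Of the Spred genes, which block RAF activation, Spred1 was the most abundant in most libraries, at 16.51, 12.6, 9.96 and 32.3 TPM in NBN, 3.36, 14.8, 5.96, 19.7 and 22.1 TPM in BP and 8.36 to 26.3 TPM in NSC (median 14.9). Spred2 stood at 4.97, 26.3, 1.17 and 0.448 TPM in NBN, 1.69, 12.48, 3.65, 11.6 and 10.7 TPM in BP and 2.03 to 9.20 TPM in NSC (median 6.17). Spred3 stayed at or below 9.08 TPM in all libraries. The populations overlapped for these 4 genes.

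Dusp6, the gene of a phosphatase that acts on ERK, was at 54.4, 88.9, 23.7 and 208 TPM in NBN, at 17.4, 45.7, 16.7, 49.3 and 78.5 TPM in BP, and at 65.0, 7.96, 23.7, 7.00, 30.5, 21.9, 60.1 and 47.1 TPM in NSC. Its highest library was NBN P3, where the 18 cells with microglial markers averaged 330 TPM and the other 22 averaged 108 TPM. It was found in 16 of those 18 cells and in 8 of the other 22. In NBN P1 all of the library's Dusp6 came from 1 cell. Its NSC slope was 0.09 ± 0.11 per day (limma, adjusted p = 0.811), and its difference of NBN from NSC 0.93 ± 0.69 (adjusted p = 0.565).

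Etv5, an ETS factor induced by FGF-ERK signalling, was higher in NSC libraries than in most others, without passing in the fit to all libraries. It stood at 11.6, 13.7, 6.20 and 3.15 TPM in NBN, at 0, 0, 3.56, 0.943 and 18.0 TPM in BP, and at 14.4, 0.0397, 15.0, 28.0, 21.9, 57.8, 142 and 98.4 TPM in NSC. All NSC libraries but E11.5 lay above all NBN libraries, and BP P0 overlapped the lower NSC libraries. In NBN E18.5 the 2 cells with interneuron markers averaged 415 TPM of Etv5, with 1 of them at 1 TPM or more. The other 68 averaged 1.91 TPM. None of the 72 BP E12.5 and 45 BP E14.5 cells reached 1 TPM. At NSC P0, 30 of 48 cells held it (62.5%, exact 95% interval 47.4 to 76.0%).

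The difference of BP from NSC in Etv5 was −3.31 ± 0.77 log2 units (SE, limma, adjusted p = 0.0719), that of NBN from NSC −2.89 ± 0.92 (adjusted p = 0.117), and the NSC slope 0.48 ± 0.12 per day (adjusted p = 0.0626). The BP difference passed without NBN P3 (−3.34 ± 0.69, adjusted p = 0.027), without NSC cells of a neuron profile (−4.12 ± 0.90, adjusted p = 0.0106) and without each library's highest cell (−3.40 ± 0.75, adjusted p = 0.0415).

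Etv1, a PEA3 factor known from layer 5 neurons as well as from FGF signalling, was at 22.1, 30.2, 0.343 and 49.6 TPM in NBN, at 146, 3.51, 4.64, 29.7 and 4.17 TPM in BP, and at 4.84, 62.9, 30.7, 0.922, 70.8, 111, 114 and 139 TPM in NSC. The last 4 NSC libraries were all at 70.8 TPM or more, but BP E12.5 lay above every NSC library. In those 4 NSC libraries, from E17.5 to P1, cells with interneuron markers (16, 9, 16 and 4 cells) averaged 212, 383, 215 and 507 TPM of Etv1, and the other cells averaged 33.0, 68.6, 63.0 and 104.5 TPM. The part of these cells in the Etv1 level was not tested. Etv4 was found in 19 of 1094 cells, 13 of them in NSC E18.5, P0 and P1, with library means of 4.59, 11.9 and 0.381 TPM there.

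In the other contrasts none of the 23 members was called. Between NBN and BP, 0.0142% of all genes were called. An unadjusted p under 0.05 was found for 1283 of all 14072 genes and for 1 member, Fgf5 (−1.47 ± 0.60, limma, adjusted p = 0.484). For age in BP, 0% of all genes were called. At an unadjusted p under 0.05 were 512 of all genes and 3 members. They were Fgfr1 (0.27 ± 0.09 per day), Etv5 (0.49 ± 0.21) and Spry2 (0.38 ± 0.18). For age in NBN, 0.448% of genes were called. At an unadjusted p under 0.05 were 2769 of all genes and 5 members, led by Fgf14 (−1.02 ± 0.28 per day, limma, adjusted p = 0.0887). Without NBN P3 the Fgf14 slope was −0.43 ± 0.41, and that of Fgf13 was 0.16 ± 0.29 against −0.79 ± 0.27 with it. In the difference between the BP and NSC slopes, 0.00711% of genes were called. At an unadjusted p under 0.05 were 556 of all genes and 1 member, Fgf14 (−0.59 ± 0.26, limma, adjusted p = 0.99997). For Spry4 that difference was −0.20 ± 0.26, so its rise in NSC is not shown to differ from the BP slope of 0.41 ± 0.22.

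In direction, 19 of the 23 members had positive slopes on age in NSC, with a median of 0.08 log2 units per day against 0.01 over all tested genes. In BP 18 had positive slopes (median 0.12 against 0.02), and in NBN 17 had negative ones (median −0.19 against −0.12). Of all tested genes, 47.7% had negative slopes in NSC, 44.5% in BP and 67.2% in NBN. The median of the members was −0.34 for NBN against NSC, beside −0.10 over all genes, and 0.01 for BP against NSC, beside 0.13. These are descriptions of a list chosen with earlier results of these data known.

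Values at matched stages, with 1 library a side, are given without a test. At E18.5, Fgfr3 was 15.8 TPM in NBN, 17.0 TPM in BP and 59.9 TPM in NSC, and Spry4 was 0.603 TPM in NBN, 4.79 TPM in BP and 192 TPM in NSC. At E18.5, Etv5 was 13.7 TPM in NBN, 0.943 TPM in BP and 57.8 TPM in NSC. In that NBN library the 2 cells with interneuron markers averaged 415 TPM of Etv5 and the other 68 averaged 1.91 TPM. At P0, Spry4 was 15.1 TPM in BP and 19.0 TPM in NSC, while Fgfr3 was 6.69 TPM in BP and 75.9 TPM in NSC. At P1, Spry2 was 36.0 TPM in NBN and 315 TPM in NSC.

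Within the NSC libraries the cells could be split by profile, with a cell called radial glia-like in profile where its mean log2(TPM + 1) over 14 radial glia markers was at least that over 12 newborn neuron markers. The split divided 538 NSC cells into 310 of the radial glia profile and 228 of the neuron profile, with 38 cells within 0.5 of the threshold. In the 5 NSC libraries with at least 5 cells of each kind (E11.5 to E18.5), Fgfr3 was higher in the radial glia profile in 5 of 5. Its means were 21.5, 91.8, 169, 133 and 79.7 TPM in radial glia-profile cells and 15.8, 26.1, 20.7, 5.56 and 2.77 TPM in neuron-profile cells of the same libraries. The gap was small at E11.5 and wide from E13.5 on, and the share of cells with Fgfr3 was also higher in all 5. The E15.5 mean of the radial glia profile comes from only 8 cells, and at E17.5 most of the library's Fgfr3 was held by a single cell.

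Etv5 was higher in radial glia-profile cells in 4 of 5 libraries, at 30.3, 281, 73.0 and 73.4 TPM from E13.5 to E18.5, against 1.49, 2.05, 2.39 and 13.0 TPM in neuron-profile cells. At E15.5 the radial glia profile has only 8 cells, 3 of them with Etv5. The mean of Spry2 was higher in 4 of 5, with 574 TPM against 116 TPM at E18.5. That of Spry4 was higher in 4 of 5, with 258 TPM in 49 cells against 0 TPM in 17 at E18.5. The Spry2 gap was small at E13.5 (44.2 TPM against 38.5 TPM) and at E15.5. At E11.5 Spry4 was at 0.018 TPM against 0.0073 TPM, and no cell of either profile reached 1 TPM. The share of cells was higher in the radial glia profile in 2 of 5 for Spry2, 3 of 5 for Spry4 and 4 of 5 for Etv5. The mean levels of Fgfr1 and Fgfr2 were higher in the radial glia profile in 2 of 5 libraries each, and the share of cells with the gene was higher in 3 of 5 for Fgfr1 and in 4 of 5 for Fgfr2. The mean of Fgf5 was higher in the neuron profile in 5 of 5 and that of Fgf11 in 4 of 5. The share of cells was higher in the radial glia profile in 2 of 5 for Fgf5 and in 0 of 5 for Fgf11. The median of genes per cell differed most at E15.5, with 4743.5 in radial glia-profile and 5203.5 in neuron-profile cells. At E18.5, the 7 cells with oligodendrocyte lineage markers averaged 283 TPM of Etv5 and 840 TPM of Spry2. The other 59 cells averaged 31.1 and 411 TPM. At P0 the 4 such cells averaged 226 TPM of Etv5 and 184 TPM of Spry2, against 134 and 358 TPM in the other 44. At P1 the 9 such cells were lower in both, at 57.9 and 236 TPM against 108 and 334 TPM in the other 38. The part of these cells in the levels was not tested.

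**Figure D4:**
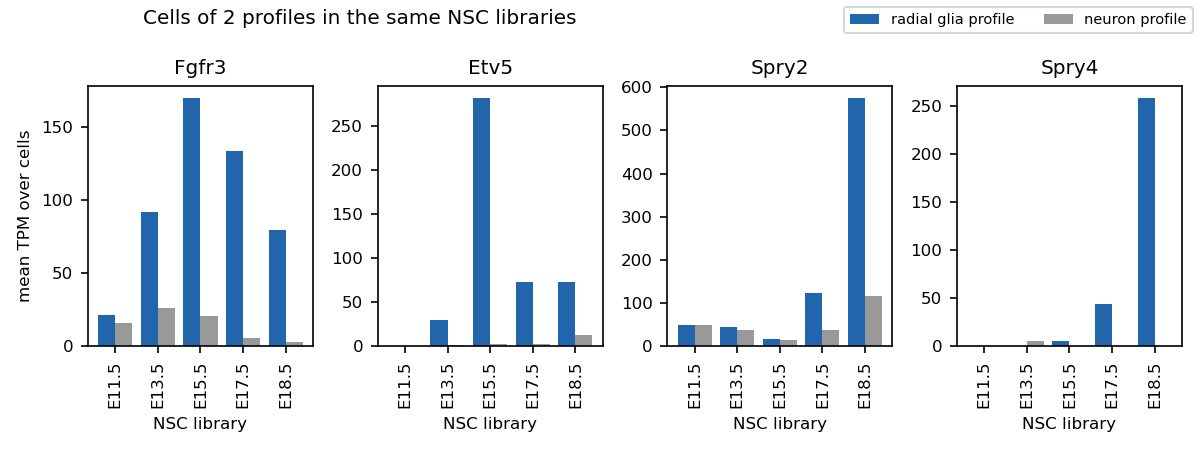
Bars give mean TPM over cells of the radial glia profile (left bar of each pair) and the neuron profile (right bar) in the 5 NSC libraries with at least 5 cells of each, on linear axes that differ between panels. Fgfr3 is higher in radial glia-profile cells in 5 of 5 libraries, and Spry2 and Spry4 differ most at E18.5.

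The feedback genes were also read cell by cell in the 3 late NSC libraries (E18.5, P0 and P1), where 31 cells held Spry4 and 130 did not. Etv5 was at 1 TPM or more in 23 of the 31 (74.2%) and in 50 of the 130 (38.5%), Etv1 in 51.6% and 28.5%, and Etv4 in 19.4% and 5.38%. Over the 3 libraries Spry2 averaged 593 TPM in cells with Spry4 and 331 TPM in those without, but at P0 it averaged 271 TPM with Spry4 and 358 TPM without. Dusp6 was found in 38.7% of cells with Spry4 and in 21.5% of those without, and at P1 in 11.1% and 21.1%. At P0, Etv4 was found in 1 of 8 cells with Spry4 and in 6 of 40 without. The median of genes per cell was 4022 with Spry4 and 3593 without, and its part in these shares was not tested. By library, the share with Etv5 was higher in the Spry4 cells in all 3 (64.3% against 25.0% at E18.5, 100% against 55.0% at P0 and 66.7% against 39.5% at P1), while at P0 the mean of Etv5 was lower in them (21.3 TPM against 166 TPM).

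Beyond the members, lists of other pathway genes were counted in the same fits. None of the 25 tested co-receptor and heparan sulfate genes (of 27 listed), the 22 genes of the RAS-ERK cascade or the 17 tested further ERK targets (of 18) was called in any contrast. Of all 14072 tested genes, 0 to 1.66% were called by contrast, so the lack of calls is not read as a result about these lists. Sdc4, a heparan sulfate proteoglycan gene, came near the threshold in BP against NSC (−4.16 ± 0.94, limma, adjusted p = 0.0625), and Ets1, an ETS factor, had an NSC slope of 0.52 ± 0.13 per day (adjusted p = 0.0559). Fosl2, an AP-1 gene, had a difference of 3.74 ± 0.95 for NBN against NSC (adjusted p = 0.0533). These 3 genes were named after their values were seen.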

How the data were processed

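Per the labels' protocols, single cells were sorted for GFP, captured on a Fluidigm C1 array, amplified with the SMARTer kit and sequenced after Nextera library preparation. The authors' deposited tables hold TPM per gene and cell, and the tool and builds named (kallisto 0.43.0; GRCm38.p2, mm10) are as listed per the submitters' processing notes. For 7 cells with few genes, every TPM value is a whole number as deposited by the authors, and these columns were entered as a score and kept on the TPM scale. Whether strand was used is not given in the sources used here, so reads of overlapping genes cannot be told apart.

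All 17 files were joined (23078 genes, 1094 cells). The value tested was log2 of a library's mean TPM plus a pseudocount of 1, on which changes of low genes come out too small. Tests covered genes whose library mean was at least 1 TPM in 4 or more of 17 libraries (14072, among them 23 members) with limma 3.58.1 in R 4.3.3 (eBayes with trend, two-sided, Benjamini-Hochberg, threshold 0.05). Population contrasts had age as a covariate, and age trends a slope for each population. Age is the embryonic day, or 18.5 plus the labelled age in days after birth. Libraries are the units: the labels name no animals or batches, so p-values measure only the spread between libraries, which may be technical. The fits were tested on simulated data. Shares of cells use a limit of 1 TPM with exact Clopper-Pearson 95% intervals, which cover counting error only. A cell held markers of another type with at least 3 of a list at 10 TPM.

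Values in every library (for NSC, at times the range and median) are given for members called or reaching 20 TPM in a library, other members by range and count. Members and lists were chosen with earlier results of these data known. Promoters come from RefSeq and coordinates from GENCODE M21 on GRCm38, and 27 of 36 members matched a promoter. Python 3.11.15, NumPy 2.4.6, pandas 2.3.3, SciPy 1.17.1 and Matplotlib 3.10.9 were used.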

Additional observations from a re-analysis of the deposited data

Results flagged for a closer look

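Among the libraries of a population, 10 of 69 sets of members' library means had 1 library far from the rest. The limit used is passed by about 1 in 20 sets of normally distributed values. Some of these means are near 0 or rest on single cells. That rate may not hold for them, so no excess over chance is read from the count. High values were found for Spry1 in NSC E18.5 (46.8 TPM, against 2.63 to 9.54 TPM in the other NSC libraries), Fgf12 in NSC P1 (14.9 TPM), Fgf1 in NSC P0 (4.48 TPM), Fgf10 in NSC E17.5 (2.57 TPM), Fgf7 in BP P0 (6.91 TPM) and Fgf18 in NBN E16.5 (2.91 TPM). In these 6, the highest cell gave 44.0 to 98.0% of the library's sum. Low values were found for Fgf13 in NBN P3 (1.89 TPM, against 126 to 199 TPM in the other NBN libraries), Fgf7 in NBN P3 (0.73 TPM, against 2.72 to 3.25 TPM), Fgfr2 in BP E12.5 (0.223 TPM, against 6.39 to 8.60 TPM) and Etv5 in NSC E11.5 (0.0397 TPM, against 14.4 to 142 TPM). NBN P3 is the library in which 36 of 40 cells held markers of another cell type, and NSC E11.5 the one with erythroid markers in 33 of 59 cells. In NSC E11.5, Etv5 averaged 0.0709 TPM in the 33 cells with erythroid markers and 0 TPM in the other 26. In NBN P3, Fgf13 averaged 1.94 TPM in the 36 marker cells and 1.40 TPM in the other 4. What part the marker cells had in the low values was not tested.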

How the results depend on the processing

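No direction of a called member turned under any alternative run. The counts of members called moved as follows. For BP against NSC the count of 0 became 1 with a pseudocount of 10 and without each library's highest cell, and 2 with quantile normalization, without NSC cells of a neuron profile, without NSC E15.5 and NBN P3, and without NBN P3 and cells with markers of another cell type. For NBN against NSC the count of 1 became 0 with a pseudocount of 0.1, with no filter on low values, without cells with markers of another type and with stage as a factor, and 2 with a pseudocount of 10, without NSC cells of a neuron profile and without NSC E15.5 and NBN P3. For age in NSC the count of 1 became 0 with no filter, 4 with the mean of log2 over cells (Etv1, Etv5, Spry2 and Spry4) and 2 without NSC E15.5 and NBN P3. For age in NBN the count of 0 became 1 with a pseudocount of 0.1, 3 with the mean of log2 over cells and 4 without cells with markers of another type, a setting that leaves 4 of 40 NBN P3 cells. Leaving out 1 library at a time gave 0 to 2 members called in BP against NSC, in NBN against NSC, for age in NSC and for age in NBN, and 0 in the other contrasts. With a pseudocount of 10 the 1 member called for age in NSC was Etv5 in place of Spry4, and from E16.5 on the 1 member called in NBN against NSC was Spry4 in place of Fgfr3. Counts over all genes moved as well. For BP against NSC, 67 of 14072 genes were called in the main fit. There were 1005 without NSC cells of a neuron profile and 512 without NSC E15.5 and NBN P3. For NBN against NSC the main count was 233, and the same settings gave 623 and 958. For age in NSC it was 192, and 2222 with the mean of log2 over cells. For age in NBN it was 63, 233 with a pseudocount of 0.1 and 2116 with the mean of log2 over cells. Without cells with markers of another type it was 3378. In other settings, BP against NSC had 52 genes called with a pseudocount of 10, 100 without each highest cell and 73 with quantile normalization. NBN against NSC had 177 with a pseudocount of 0.1, 113 with no filter, 409 with stage as a factor and 227 with a pseudocount of 10. It had 243 without cells with markers of another type. Age in NSC had 131 with no filter and 300 without NSC E15.5 and NBN P3. The cause of these moves was not tested. Chosen after seeing the data were the alternatives without the highest cell, without oligodendrocyte-marker cells, and without NBN P3 and cells of another type. TPM give no depth, so low members cannot be given a counting error. No paired analysis was possible because the replicate numbers in the labels only number the cells of a library.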
